A study of Mus musculus with 9 samples.

Results

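The genes described here are 10 feedback inhibitors and effectors of the RAS-ERK pathway: Spry1, Spry2, Spry4, Spred1, Spred2, Dusp4, Dusp6, Etv1, Etv4 and Etv5. They were followed in sorted cells of the mouse forelimb bud at E10.5, on 9 Affymetrix Mouse430_2 arrays. Members were taken by symbol, from probe sets whose annotation gives exactly 1 gene symbol. By this rule 9 of the 10 genes were found, on 27 of the 45037 probe sets tested and among 18193 genes. All 3 probe sets for Etv1 carry the symbol of a pseudogene, Gm5454, as well. They fell outside the rule, and their values are given apart from the counts.

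The arrays fell into 3 groups of 3. PAX3-FKHR GFP+ cells came from Pax3PAX3-FKHR/GFP embryos, which carry GFP in one Pax3 allele and, in the other, the fusion of PAX3 to the activation domain of FKHR. That second allele is conditional, and was recombined by the general PGK-Cre transgene carried by the mothers. Control GFP+ cells came from Pax3GFP/+ embryos, which keep one normal Pax3 allele. GFP- cells were sorted from the same kind of limb bud as cells without Pax3-GFP. Their labels give no genotype. The paper's results and statistical methods name Pax3GFP/+ embryos as their source. Its microarray methods list a Pax3+/+ group among those hybridised, so their genotype is not settled here. Buds of many embryos of a genotype were combined before the sort, so an array reports a pool and not a single embryo. A sorted sample is a mixture of cells, in which fewer cells of a type and less RNA per cell cannot be told apart.

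ERK, the last kinase of the RAS-RAF-MEK-ERK chain, is activated when growth factors such as FGFs bind receptor tyrosine kinases. Sprouty (Spry) and Spred proteins dampen the chain between receptor and RAF, and the phosphatases Dusp4 and Dusp6 remove the activating phosphates from ERK family kinases. Etv1, Etv4 and Etv5, the PEA3 group of ETS transcription factors, lie at its far end. Genes of all these families are induced by FGF signalling in many embryonic tissues, and in the limb bud the apical ridge is a source of FGFs for the mesenchyme below it. Limb myogenic progenitors, the main Pax3 expressing cells of the limb bud, migrate through that mesenchyme.

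Each value below is the deposited log2 RMA value of a probe set, and a gene stands by its brightest probe set. All differences are on the log2 scale. To be called, a gene needed an adjusted p below 0.05 in limma (Benjamini-Hochberg, over all probe sets) together with a log2 difference of 0.5 or more in size, which is a fold change of 1.414. A permutation test on 3 arrays against 3 has a smallest exact two-sided p of 0.1, so no such test could pass the threshold.

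The sort was checked on Pax3 and on marker lists. The main Pax3 probe set lay at 6.83 to 7.33 in PAX3-FKHR GFP+ cells, at 8.94 to 10.22 in control GFP+ cells and at 4.77 to 5.17 in GFP- cells. Of 8 muscle progenitor markers, 7 were higher in PAX3-FKHR GFP+ than in GFP- cells, and 8 were higher in control GFP+ than in GFP- cells. Of 10 limb mesenchyme markers, 10 and 9 were lower in the same comparisons. Control GFP+ replicate 3 stood apart most, with an array weight of 0.236 where the others had 0.604 to 2.69. The differences from control GFP+ cells that moved most with it are also given without it.

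Spry1, which codes for a Sprouty inhibitor of receptor tyrosine kinase signalling, had the largest difference between the GFP+ populations among the 9 members. Its values were 8.49, 9.03 and 8.95 in PAX3-FKHR GFP+ cells, against 7.72, 7.88 and 6.80 in control GFP+ cells. The GFP- cells lay at 8.66, 8.55 and 8.57. Every PAX3-FKHR GFP+ array was thus above every control GFP+ array, and every control GFP+ array was below every GFP- array.

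The means of Spry1 were 8.82 ± 0.29 in PAX3-FKHR GFP+ cells, 7.47 ± 0.58 in control GFP+ cells and 8.59 ± 0.06 in GFP- cells (SD, n = 3 each). The difference of PAX3-FKHR GFP+ from control GFP+ cells was 1.35 (2.56-fold, standard error 0.26, 95% interval 0.77 to 1.94). Its limma adjusted p over all probe sets was 0.0622, so Spry1 was not called. It passed the threshold in 6 of 20 alternatives, among them the local pooled error test that the study's methods name (1.23, adjusted p = 0.00373). Leaving out control GFP+ replicate 3 brought the difference to 1.02 and limma's adjusted p to 0.0494. Without control GFP+ replicate 2 the difference was 1.56 and limma's adjusted p was 0.0475. Without PAX3-FKHR GFP+ replicate 2 limma's adjusted p was 0.26, the highest of all the alternatives.

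In control GFP+ cells Spry1 was 2.18-fold lower than in GFP- cells (-1.13, standard error 0.26, limma adjusted p = 0.031), and by -0.79 without control GFP+ replicate 3 (limma adjusted p = 0.028). This call was lost in 7 of 20 alternatives, including each omission of 1 GFP- array, where limma's adjusted p was 0.0945, 0.0829 and 0.0809 without replicates 1, 2 and 3. PAX3-FKHR GFP+ cells did not differ detectably from GFP- cells (0.23, 95% interval -0.35 to 0.81, limma adjusted p = 0.693). Spry1 thus had its lowest level in control GFP+ cells, and the order of the other groups was not resolved.

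Dusp6, the ERK phosphatase that is widely read as a sign of FGF signalling in embryos, had its lowest level in the same group. It measured 9.54, 9.51 and 9.26 in PAX3-FKHR GFP+ cells, against 8.79, 9.13 and 8.01 in control GFP+ cells. GFP- cells were at 9.74, 9.94 and 10.12, so the 3 groups did not overlap at any array.

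Dusp6 averaged 9.44 ± 0.15 in PAX3-FKHR GFP+ cells, 8.64 ± 0.57 in control GFP+ cells and 9.93 ± 0.19 in GFP- cells. The difference with PAX3-FKHR was 0.79 (95% interval 0.24 to 1.34). It did not pass the threshold (limma adjusted p = 0.41, unadjusted p = 0.00939), and it came to 0.48 without control GFP+ replicate 3 (limma adjusted p = 0.518). Control GFP+ cells were 2.45-fold lower than GFP- cells (-1.29, standard error 0.25, limma adjusted p = 0.0135). The difference was -0.97 without control GFP+ replicate 3 (limma adjusted p = 0.0101). The call was lost without GFP- replicate 3 (-1.20, limma adjusted p = 0.053). PAX3-FKHR GFP+ cells lay below GFP- cells on every array, by -0.50 (95% interval -1.05 to 0.05, limma adjusted p = 0.302). Control GFP+ replicate 3 held the lowest value of the 9 arrays for Dusp6 and for Spry1 alike.

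**Figure D1:**
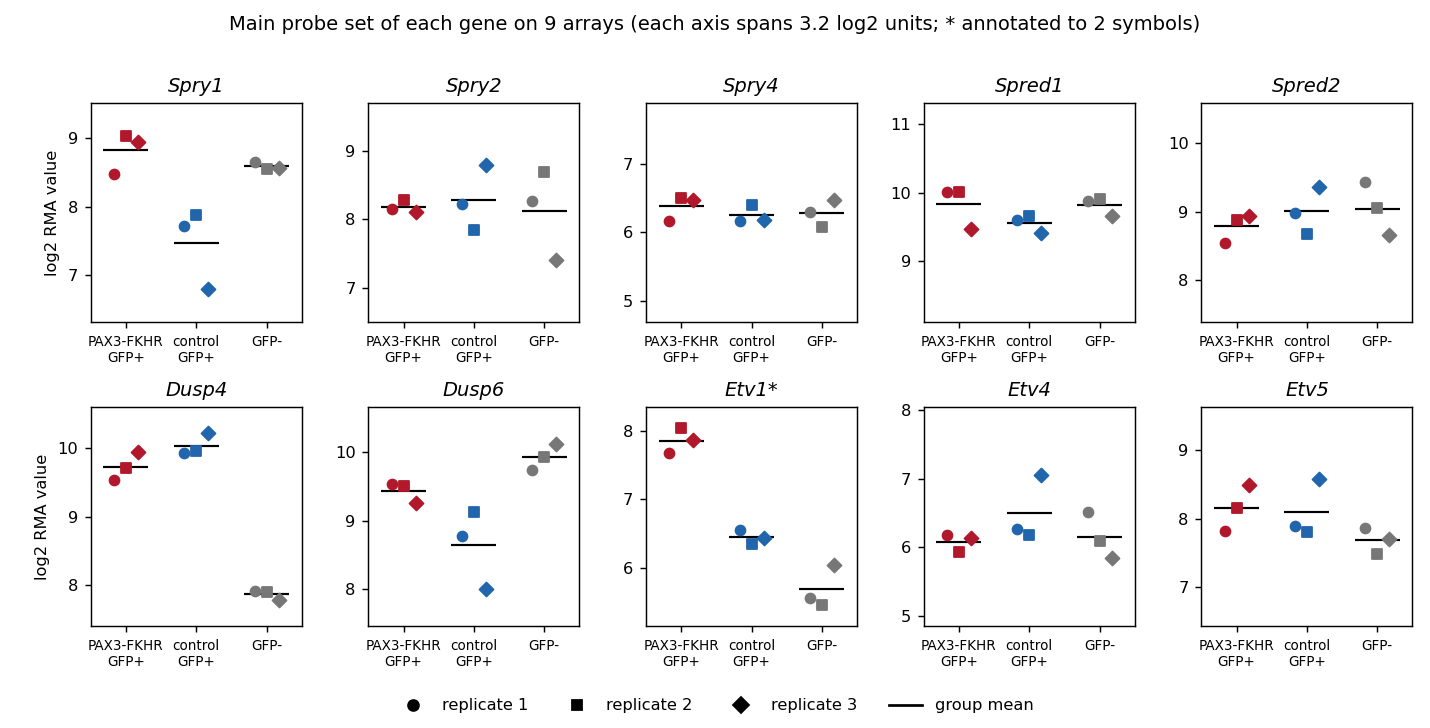
Log2 RMA value (y axis) of the main probe set of each gene on the 9 arrays, by group (x axis), with replicates 1 to 3 as circles, squares and diamonds and the group mean as a line. Spry1 and Dusp6 lie lowest in control GFP+ cells, Dusp4 lies lowest in GFP- cells, and the Etv1 probe set, marked because it is annotated to 2 symbols, steps down across the 3 groups.

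**Figure D2:**
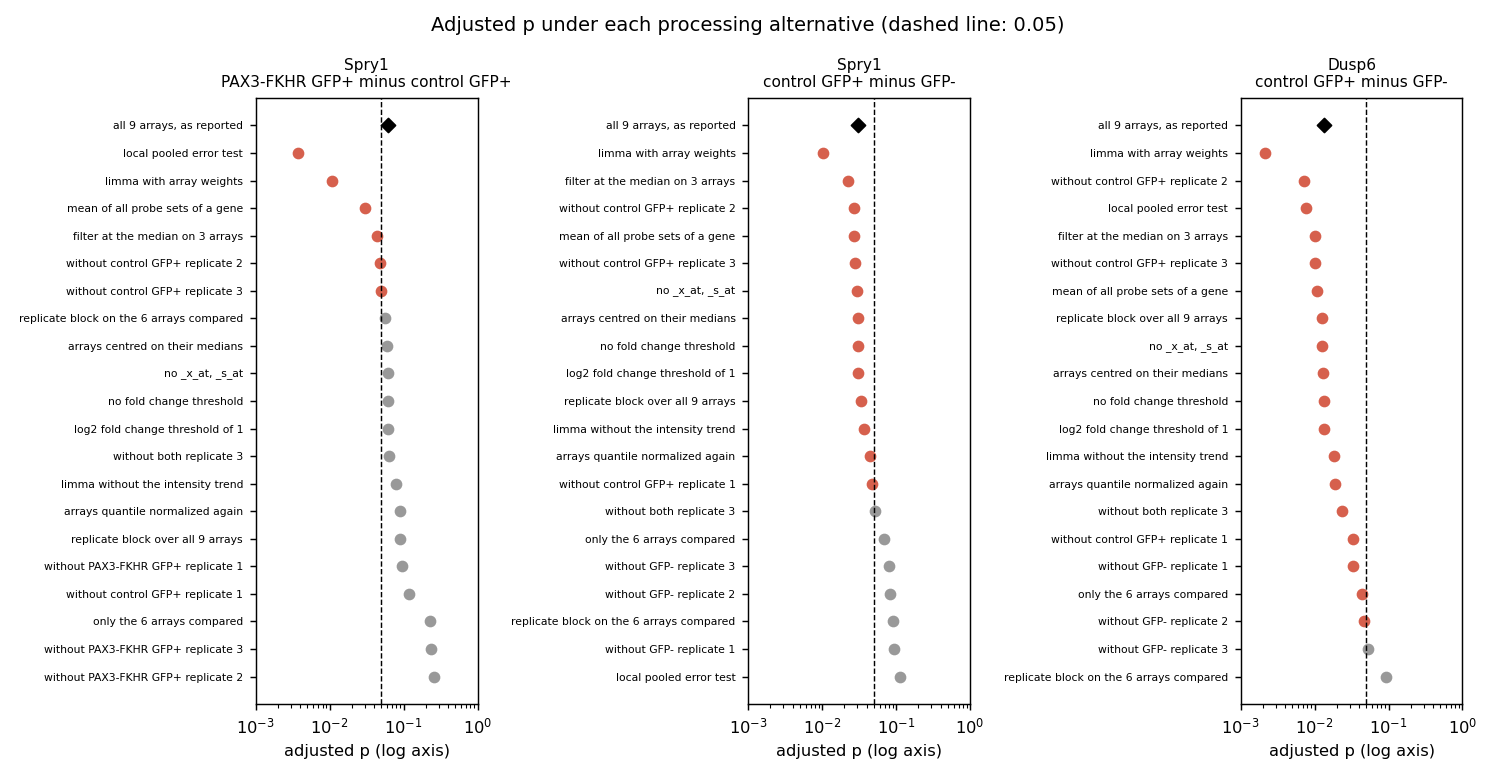
Adjusted p (x axis, log scale) for Spry1 in 2 comparisons and Dusp6 in 1, as reported (black diamond) and under each of the 20 alternatives (circles, red below and grey above 0.05, marked by the dashed line). Spry1 with PAX3-FKHR ranges from 0.00373 to 0.26, and Spry1 and Dusp6 in control GFP+ against GFP- cells reach 0.112 and 0.0935 at the highest.

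Since Spry1 and Dusp6 both had their lowest level in control GFP+ cells, the sequences around their start sites are shown. They run from 250 bases before to 50 bases after the start in RefSeq, 5′ to 3′, on GRCm38.p6. Spry1 is at chr3:37639697-37639996 and Dusp6 at chr10:99262981-99263280, both on the plus strand. Capitals mark the letters CGGAAG on either strand, an ETS core such as the Etv factors bind.

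Spry1: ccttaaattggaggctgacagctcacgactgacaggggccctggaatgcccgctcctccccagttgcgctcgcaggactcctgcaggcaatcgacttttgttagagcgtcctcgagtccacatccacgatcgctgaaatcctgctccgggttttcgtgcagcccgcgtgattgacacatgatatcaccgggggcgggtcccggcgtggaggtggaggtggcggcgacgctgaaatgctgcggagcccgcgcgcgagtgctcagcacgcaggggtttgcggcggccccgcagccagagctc
Dusp6: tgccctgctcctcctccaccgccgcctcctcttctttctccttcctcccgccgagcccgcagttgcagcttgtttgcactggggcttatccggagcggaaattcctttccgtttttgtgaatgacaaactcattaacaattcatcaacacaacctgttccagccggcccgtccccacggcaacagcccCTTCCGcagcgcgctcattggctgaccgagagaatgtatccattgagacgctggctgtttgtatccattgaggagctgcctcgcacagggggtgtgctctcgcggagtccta

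The Dusp6 window held 1 ETS core, which began 62 bases before the start, and the Spry1 window held none. RefSeq windows were at hand for 7 of the 10 genes, 9 windows in all since Etv1 and Etv5 have 2 each. The ETS core was in 3 of the 9, those of Dusp6, Spred1 and Spred2, and in 16.9% of all 32851 windows. The Spred1 window held 2 of these cores and the Spred2 window 1. None of the 9 held the CRE TGACGTCA (1.79% of all windows), the AP-1 site TGANTCA (7.81%) or the CArG box bound by serum response factor (1.63%). Likewise none held the paired domain motif GTCACGC (2.09%) or the homeodomain dimer, TAAT and ATTA with 3 bases between (0.487%), letters of the kinds that Pax3 binds. Both strands were searched, and neither the CRE nor the AP-1 letters contain the other. A match is a description of the letters only.

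Dusp4 codes for a nuclear phosphatase of ERK and related kinases. Apart from the Etv1 probe set, given below, it was the only member called higher than GFP- cells in both GFP+ populations. Its values were 9.53, 9.71 and 9.94 in PAX3-FKHR GFP+ cells, 9.94, 9.96 and 10.22 in control GFP+ cells, and 7.92, 7.90 and 7.79 in GFP- cells. All 6 arrays of GFP+ cells lay above all 3 arrays of GFP- cells, by over 1 log2 unit.

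PAX3-FKHR GFP+ cells held 3.63-fold more Dusp4 signal than GFP- cells (1.86, standard error 0.14, limma adjusted p = 4.55e-05). Control GFP+ cells held 4.50-fold more (2.17, standard error 0.14, limma adjusted p = 3.52e-05). Both calls held in each of the 20 alternatives. Between the GFP+ populations the difference was -0.31 (95% interval -0.63 to 0.01, limma adjusted p = 0.718), with overlapping arrays. Dusp4 and Dusp6, though both phosphatases of ERK, thus stood on opposite sides of the GFP- cells in the control.

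The marker lists moved with the sort as well. The mean deviation of the 8 muscle progenitor markers from their own 9-array means was 0.96 to 1.10 in PAX3-FKHR GFP+, 1.25 to 1.30 in control GFP+ and -2.46 to -2.06 in GFP- cells. For the 10 mesenchyme markers it was -1.001 to -0.55, -0.77 to -0.50 and 1.10 to 1.59 in the same groups. Ectoderm and apical ridge markers lay at -0.46 to 0.00, -0.74 to -0.19 and 0.04 to 1.24. The progenitor list includes Pax3, which differs by genotype between the GFP+ populations (-2.59 with PAX3-FKHR). The gap between their progenitor ranges thus includes the genotype. The other 7 progenitor markers were not called between these populations, and their differences had both signs.

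Markers of other cell types also differed between GFP+ and GFP- cells. The list for neural crest and glia had 4 of 7 genes higher and 2 lower than in GFP- cells, in either GFP+ population. Their mean deviation was -0.14 to 0.68 in PAX3-FKHR GFP+, -0.12 to 0.95 in control GFP+ and -0.87 to -0.63 in GFP- cells. Of 10 neural tube and neuron markers, 5 were higher in either GFP+ population, with mean deviations of 0.02 to 0.84, 0.50 to 0.69 and -1.03 to -0.94 in the same groups. Of 10 markers of differentiating muscle, 9 were higher in PAX3-FKHR GFP+ and 6 in control GFP+ cells than in GFP- cells. Blood and macrophage markers had 1 of 10 lower in either comparison, and none of 10 endothelial markers was called. The part of these differences in the Dusp4, Dusp6 and Spry1 results against GFP- cells was not tested.

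Between the GFP+ populations, 1 of the 8 progenitor markers was called lower, Pax3 itself (-2.59, limma adjusted p = 0.00363). The paper takes Pax3 as a control, stating that Pax3PAX3-FKHR/GFP embryos do not transcribe the mouse gene. The main Pax3 probe set still read higher in PAX3-FKHR GFP+ than in GFP- cells (2.08, limma adjusted p = 0.00211). The source of that signal was not tested. None of the 10 mesenchyme markers was called between the GFP+ populations. Of 12 ectoderm and ridge markers, 1 was called higher, namely Fgf8. Of 10 markers of differentiating muscle, 1 was called higher, and their median difference was 0.87. Their mean deviation was 0.93 to 1.59 in PAX3-FKHR GFP+ and -0.22 to 0.85 in control GFP+ cells, without overlap. The part of these in the values of Spry1 and Dusp6 was not tested.

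The remaining Sprouty genes gave no call in any comparison. Spry2, a close relative of Spry1, was at 8.15, 8.28 and 8.11 in PAX3-FKHR GFP+ cells, 8.22, 7.85 and 8.80 in control GFP+ cells, and 8.27, 8.69 and 7.40 in GFP- cells. Its groups overlapped, and the difference with PAX3-FKHR was -0.11 (95% interval -0.81 to 0.59). Against GFP- cells it was 0.06 for PAX3-FKHR GFP+ cells (-0.64 to 0.76) and 0.17 for control GFP+ cells (-0.53 to 0.87).

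Spry4, a further member of the family, was at 6.16, 6.51 and 6.48 in PAX3-FKHR GFP+ cells, 6.17, 6.41 and 6.18 in control GFP+ cells, and 6.30, 6.08 and 6.47 in GFP- cells. Its difference with PAX3-FKHR was 0.13 (95% interval -0.22 to 0.48). On this main probe set the upper end of that interval lies below the whole interval found for Spry1. On another, 1445669_at, the interval was -0.20 to 0.80 and overlapped that of Spry1. The pair was not compared by a test. None of the 4 Spry4 probe sets was called.

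Spred1 and Spred2, membrane-bound inhibitors that recruit neurofibromin to RAS, gave no call on their main probe sets. Spred1 lay at 10.01, 10.01 and 9.47 in PAX3-FKHR GFP+ cells, 9.59, 9.66 and 9.41 in control GFP+ cells, and 9.88, 9.90 and 9.66 in GFP- cells. The arrays overlapped, with a difference of 0.27 with PAX3-FKHR (95% interval -0.09 to 0.64). Against GFP- cells it was 0.02 for PAX3-FKHR GFP+ cells (-0.35 to 0.38) and -0.26 for control GFP+ cells (-0.63 to 0.11). None of the 8 Spred1 probe sets was called. On 1423162_s_at, though, every PAX3-FKHR GFP+ array lay above every control GFP+ array (0.74, 95% interval 0.19 to 1.28, limma adjusted p = 0.488).

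Spred2 was at 8.54, 8.88 and 8.94 in PAX3-FKHR GFP+ cells, 8.98, 8.67 and 9.36 in control GFP+ cells, and 9.43, 9.05 and 8.65 in GFP- cells. The groups overlapped on this main probe set, with a difference of -0.21 with PAX3-FKHR (95% interval -0.72 to 0.30). Another of its 5 probe sets, 1441415_at, disagreed with it.

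On 1441415_at, Spred2 had 5.90, 5.66 and 5.84 in PAX3-FKHR GFP+ cells, 5.64, 5.13 and 5.68 in control GFP+ cells, and 6.71, 6.46 and 6.999 in GFP- cells. Here both GFP+ populations were called lower than GFP- cells, by -0.92 with PAX3-FKHR (limma adjusted p = 0.015) and by -1.24 in the control (limma adjusted p = 0.00442). On the main probe set these differences were -0.26 (limma adjusted p = 0.598) and -0.04 (limma adjusted p = 0.937). The size and the call for Spred2 against GFP- cells thus depend on the probe set. On a further probe set, 1436892_at, the differences were of the other sign and not called (0.56 with PAX3-FKHR and 0.67 in the control, limma adjusted p = 0.43 and 0.308). On 1441802_at every array of both GFP+ populations lay below the GFP- arrays, without a call (-0.18 with PAX3-FKHR and -0.65 in the control, limma adjusted p = 0.698 and 0.104). There PAX3-FKHR GFP+ arrays also lay above all control GFP+ arrays (0.47, limma adjusted p = 0.695). On 1423001_at the differences from GFP- cells were -0.01 and 0.03.

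The Etv genes are transcription factors that FGF signalling induces. The brightest probe set for Etv1, 1422607_at, is annotated to Etv1 and Gm5454, and which of them it reports was not resolved. It was at 7.67, 8.04 and 7.86 in PAX3-FKHR GFP+ cells, 6.54, 6.35 and 6.43 in control GFP+ cells, and 5.55, 5.46 and 6.04 in GFP- cells. No array of one group overlapped with those of another.

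On 1422607_at the difference with PAX3-FKHR was 1.41 (2.66-fold, standard error 0.18, limma adjusted p = 0.00657), which was called in each of the 20 alternatives. PAX3-FKHR GFP+ cells were 4.51-fold above GFP- cells (2.17, limma adjusted p = 6.31e-05). Control GFP+ cells were 1.69-fold above GFP- cells (0.76, limma adjusted p = 0.0311), a call that was lost in 9 of 20 alternatives. These included the omission of any 1 of the 3 control GFP+ arrays and of GFP- replicate 1 or 2, with limma adjusted p from 0.0512 to 0.111.

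The second Etv1 probe set, 1450684_at, had the same order. It was at 7.14, 7.42 and 7.36 in PAX3-FKHR GFP+ cells, 5.98, 6.07 and 5.86 in control GFP+ cells, and 4.99, 5.14 and 5.20 in GFP- cells. The difference with PAX3-FKHR was 1.34 (limma adjusted p = 0.00165), and that of control GFP+ from GFP- cells was 0.86 (limma adjusted p = 0.00492). The third, 1445314_at, lay between 2.26 and 2.62 on all arrays and was not called.

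Etv4 and Etv5 did not share this pattern. Etv4 was at 6.18, 5.93 and 6.13 in PAX3-FKHR GFP+ cells, 6.27, 6.18 and 7.06 in control GFP+ cells, and 6.51, 6.10 and 5.85 in GFP- cells. Its difference with PAX3-FKHR was -0.42 (95% interval -0.96 to 0.12). Control GFP+ replicate 3 was its highest array, and without it the difference was -0.14. The groups overlapped.

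Etv5 was at 7.81, 8.16 and 8.49 in PAX3-FKHR GFP+ cells, 7.89, 7.80 and 8.58 in control GFP+ cells, and 7.87, 7.48 and 7.70 in GFP- cells. The difference with PAX3-FKHR was 0.06 (95% interval -0.47 to 0.59). Against GFP- cells PAX3-FKHR GFP+ cells differed by 0.47 (-0.06 to 1.00) and control GFP+ cells by 0.41 (-0.12 to 0.93), neither of which was called. In these cells 2 of the 3 probe sets for Etv1 separated the groups on every array, while the main probe sets of Etv4 and Etv5 overlapped in every comparison.

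**Figure D3:**
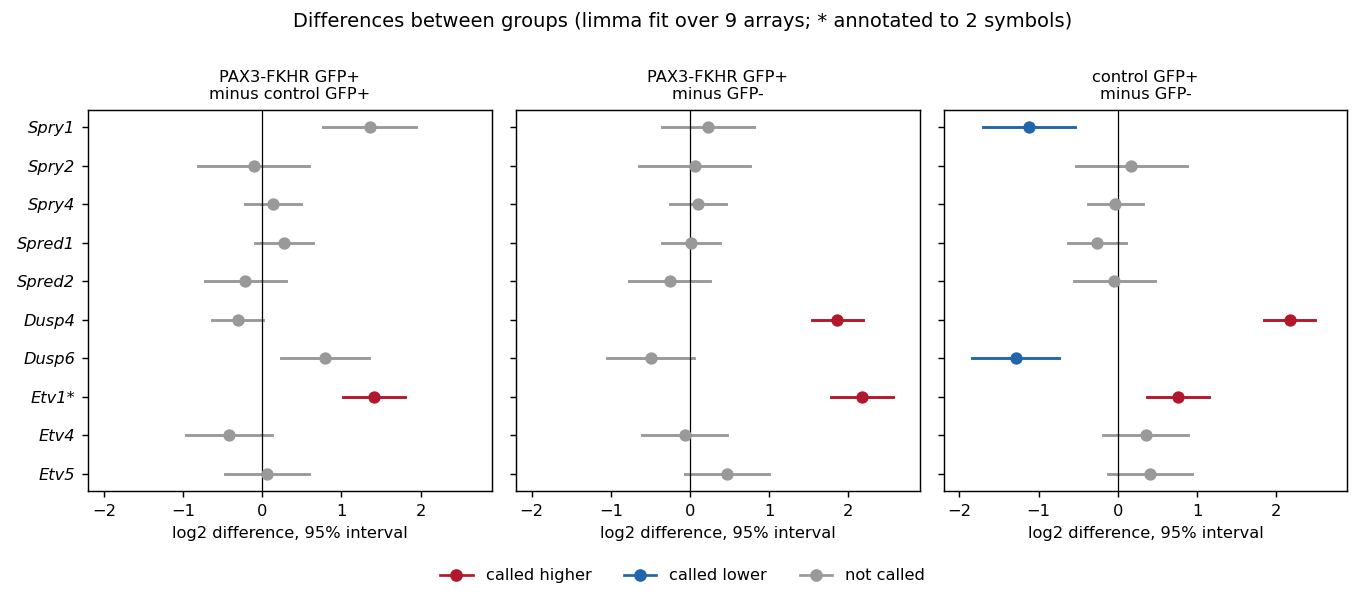
Log2 difference (x axis) of each gene's main probe set in the 3 comparisons, with 95% intervals from the limma fit, in red where called higher, blue where called lower and grey where not called. Dusp4 is called against GFP- cells in both populations, Spry1 and Dusp6 are called lower in control GFP+ cells, and the Etv1 probe set, annotated to 2 symbols, is called higher in all 3 panels.

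Over the 9 genes that the rule found, none was called between PAX3-FKHR GFP+ and control GFP+ cells. Of all genes, 0.610% were called higher and 0.203% lower in limma. At an unadjusted p under 0.05 the members past the line were 2, Spry1 and Dusp6, both with the higher value in PAX3-FKHR GFP+ cells, as were 3.88% of all genes. The local pooled error test called 1 higher, Spry1, and 0.770% of all genes. On the main probe sets, Spry1 and Dusp6 were also the 2 members with all PAX3-FKHR GFP+ arrays above all control GFP+ arrays, and none had all arrays below. Of all genes, 5.42% had all arrays above and 8.88% all arrays below. The members' median difference was 0.06, against -0.03 over all genes, and 7 of the 9 lay within 0.5 of 0.

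Between PAX3-FKHR GFP+ and GFP- cells, 1 of 9 was called higher, Dusp4, and none lower, where 3.90% of all genes were higher and 2.79% lower. Arrays lay wholly above GFP- cells for 1 member and wholly below for 1, Dusp6, against 17.8% and 10.1% of all genes. The median difference was 0.06 for the members and 0.05 for all genes.

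Between control GFP+ and GFP- cells, 1 of 9 was called higher (Dusp4) and 2 lower (Spry1 and Dusp6), where 2.79% of all genes were higher and 1.93% lower. The same 3 genes were those whose arrays did not overlap, 1 above and 2 below, against 17.2% and 6.96% of all genes. The median difference was -0.03 for the members and 0.08 for all genes. The last 2 comparisons share the GFP- arrays, and the first and last share the control GFP+ arrays.

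**Figure D4:**
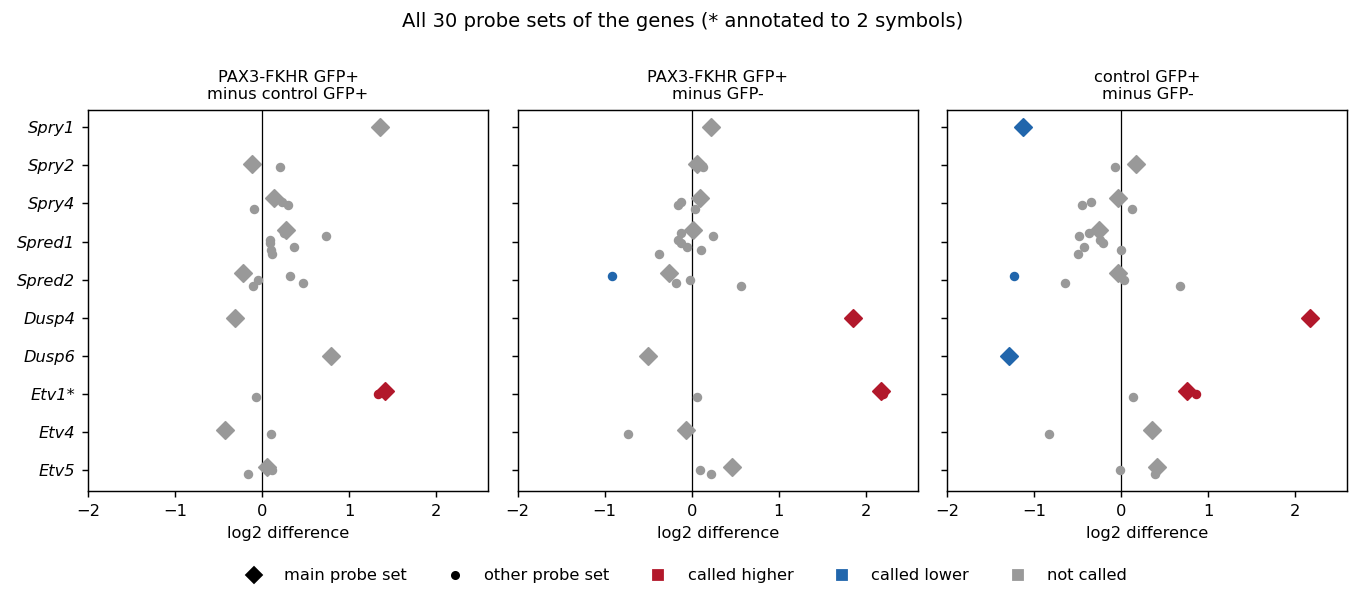
Log2 difference (x axis) of all 30 probe sets of the genes in the 3 comparisons, with the main probe set as a diamond, the others as circles, and calls in red (higher) and blue (lower). Spred2 has 1 probe set called lower against GFP- cells beside a main probe set that is not called, and 2 of the 3 Etv1 probe sets, annotated to 2 symbols, are called higher in each panel.

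The other genes of the pathway were read from 6 lists with 105 genes, of which 99 were measured. Between the GFP+ populations, 5 of them were higher with PAX3-FKHR and 1 was lower, against 0.610% and 0.203% of all genes. Egr2, an early response transcription factor gene, rose by 2.36 (limma adjusted p = 0.000338), and Jun, a part of AP-1, rose by 1.04 (limma adjusted p = 0.0183). Of the 20 early response genes these were the 2 called. Of 13 FGF ligands and receptors, the ligand genes Fgf5 (2.30, limma adjusted p = 0.00509) and Fgf8 (1.14, limma adjusted p = 0.00712) rose.

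In a list of 22 other feedback regulators, not all of them inhibitors, Errfi1, which inhibits EGF receptors, rose by 1.18 (limma adjusted p = 0.0149). Flrt3, a membrane protein that binds FGF receptors, fell by 0.77 (limma adjusted p = 0.0381). No gene was called among 12 of the RAS-RAF-MEK-ERK chain itself, 17 adaptors and positive or negative regulators of RAS, and 15 other ETS factors.

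Where 3.90% of all genes were higher and 2.79% lower between PAX3-FKHR GFP+ and GFP- cells, 14 of the 99 were higher and 10 lower. By the smallest adjusted p they were led by Egr2 (3.54, limma adjusted p = 2.83e-06), Fgf5 (4.25), Errfi1 (1.72), Phlda1 (2.24) and Jun (1.36), which were higher, and Ets2, an ETS factor phosphorylated by ERK, which was lower (-1.78).

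Between control GFP+ and GFP- cells, 9 of the 99 were higher and 6 lower, against 2.79% and 1.93% of all genes. Fgf9, a ligand gene, was higher by 2.05 (limma adjusted p = 0.000127), as were Myc (1.82), Fgf5 (1.95), Phlda1 (1.77) and Egr2 (1.18), while Ets2 was lower (-1.66, limma adjusted p = 0.000504). The lists were chosen with results of these arrays known, and their medians lay between -0.11 and 0.29 in all 3 comparisons, against -0.03 to 0.08 over all genes.

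For the members called in any comparison, the genes closest in pattern were sought over the 9 arrays by Pearson's r. They were Mbnl3 (0.965), Tnc (0.958) and Cbfa2t3 (0.956) for Spry1. For Dusp6 they were Farp1 (0.972), Wls (0.971) and Ahnak (0.971), and for Dusp4 they were Zcchc12 (0.995), Lin7a (0.991) and Tpm2 (0.988). The points are arrays of 3 groups, so these values largely follow the group means, and they are a description only.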

How the data were processed

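GFP+ and GFP- cells of forelimb buds were sorted, and their RNA was amplified in 2 cycles and hybridised to 9 arrays. The deposited values are log2 intensities per probe set, which the authors made with RMA (background correction, normalization over arrays, summary over probes; version not given in the sources used here). The methods describe triplicate samples. Absent calls, on which the study filtered, were not used here.

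From these values, 64 array controls were set aside and 45037 probe sets were fitted in 1 model over 3 groups, with limma 3.58.1 in R 4.3.3 and an intensity trend. Of these, 34945 carry 1 symbol, 932 several and 9160 none. With 3 arrays a group, precision is limited by their number. The members and lists were chosen with earlier results of these data known. The genes named are all members, up to 6 called genes per comparison from the pathway lists with the smallest adjusted p, and the 3 genes most like each called member.

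After removal of group means, same-numbered arrays of the GFP+ populations correlated by 0.164, 0.472 and 0.287. Each PAX3-FKHR GFP+ array was most like the control GFP+ array of its own number, which does not establish that they are paired. The main fit held no replicate term, and a replicate block was run as an alternative. Nothing states that equal numbers share a day or litter, and p-values measure the spread between these samples. Alternatives were other scalings, filters, thresholds, probe set rules, array weights, the replicate block, each array left out, and the local pooled error test, rebuilt from its description with 100 bins. Scripts were tested on simulated data.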

Additional observations from a re-analysis of the deposited data

How the results depend on the processing

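Between PAX3-FKHR GFP+ and control GFP+ cells the count of members called higher was 1 in place of 0, through Spry1, with array weights, the filter at the median, each gene's probe sets averaged or the local pooled error test, and 0 to 1 with 1 array left out. The replicate block changed no call in this comparison, with Spry1 at adjusted p = 0.0902 over all 9 arrays and 0.0555 on the 6 arrays. With the replicate block on the 6 arrays, the count called lower between control GFP+ and GFP- cells was 0 in place of 2, though same-numbered arrays there were not the most alike (correlations 0.065, 0.068 and -0.205). It was 1 with only the 6 arrays fitted, with the local pooled error test, and, as a choice made after seeing the data, without control GFP+ replicate 3 and GFP- replicate 3 together (Spry1 -0.81, adjusted p = 0.0514). It was 0 to 2 with 1 array left out. Counting the Etv1 probe set, also a later choice, made the counts called higher 1 with PAX3-FKHR against control, 2 in PAX3-FKHR GFP+ against GFP- cells and 2 in control GFP+ against GFP- cells. None of the 7 called differences, those of Etv1 included, changed sign. Among the 23 not called, 39 of 460 values took the other sign, so no direction should be read from those near 0.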
